A study of Homo sapiens with 24 samples.

Results

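SW480 cells treated with TGFB1 were compared with SW480 cells that received the solvent DMSO. The comparison took every SW480 library whose label names TGFB1 (4) and every one whose label names DMSO (4), with the construct as a blocking factor, which makes 8 of the 24 RNA-seq libraries of the series. SW480 is an established line from a human colorectal adenocarcinoma, and SW620 is its sister line from a lymph node metastasis of the same patient. All SW480 cells had been infected with a lentivirus and selected with 5 ug/ml puromycin. The virus carried either Tet2CD, the catalytic domain of the DNA demethylase TET2, or an empty vector, so that the vector cells are also infected and selected cells. By the sample records, TGFB1 was given at 4 ng/ml for 24 h. The study's supplement instead describes several TGF-beta ligands, each at a lower dose, and a longer treatment before RNA-seq. Which holds for these libraries is not settled here. A further 4 SW480 libraries, from cells given RepSox at 1 uM, an inhibitor of the TGFBR1 kinase, are outside the comparison. They give 1 level at the end. They also enter the alternative fits of all 24 and of all 12 SW480 libraries, and the scaling of levels. Each combination of construct and treatment has 2 libraries, which are named replicate 1 and replicate 2 in accession order. The labels do not tie them to separate cultures, and a p-value then reflects library-to-library spread that may be technical alone. The question behind the series, in its design text, is what DNA demethylation does during the epithelial-mesenchymal transition (EMT), for which TGFB1 is a common stimulus.

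TGF-beta ligands bind a pair of receptor kinases, TGFBR2 and TGFBR1. The activated TGFBR1 phosphorylates SMAD2 and SMAD3, which enter the nucleus with SMAD4 and act on target genes, and the same receptors also feed MAP kinase and PI3 kinase signalling. Among the targets are inhibitors of the pathway itself, matrix genes and genes of cell adhesion, while ID genes are typically induced by the BMP branch. In epithelial cells TGF-beta is known for growth arrest and for EMT, and many colorectal cancers lose parts of the pathway. SW480 is known for having lost SMAD4 expression.

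Library totals ran from 2694120 to 3877775 expected counts. TET2, whose count includes transcripts of the introduced catalytic domain, stood at 14.4 to 24.0 CPM (counts scaled to a common library size) in the 4 vector libraries and at 807 to 2630 CPM in the 4 Tet2CD libraries, so the labels of the construct hold. The colon epithelial markers summed to 7870 to 18700 CPM, and 11 of the 15 had a median of at least 1 CPM. CEACAM5 had no count and CDH17 had 2 in all. Blood markers summed to at most 11.5 CPM and fibroblast markers to at most 25.5 CPM, and PTPRC, PECAM1, CDH5, DCN and FAP, which define those cells and endothelium, were at or near 0. Endothelial markers summed to 36.8 to 116 CPM, most of it from EGFL7, a gene that other cells also express. SMAD4 was close to absent, with 33 counts over the 8 libraries and 0 to 1.82 CPM in each.

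The Tet2CD replicate 1 libraries, with DMSO and with TGFB1, stood apart from the other 6. Their share of counts from ribosomal protein genes was 10.9% and 12.7%, against 6.18% to 7.36% in the others, and their TET2 level of 907 and 807 CPM was below the 1890 and 2630 CPM of the replicate 2 libraries. Their epithelial markers summed to 17200 and 18700 CPM, against at most 11500 CPM elsewhere. The SD of the log2 difference between replicates was 0.66 for Tet2CD with DMSO and 0.938 for Tet2CD with TGFB1, but 0.406 and 0.399 in the vector groups. The groups of the series other than SW480 Tet2CD had values from 0.342 to 0.478. Counts over all genes are therefore given with all 8 libraries and with the 6 that remain without these 2, and what set the 2 libraries apart was not tested. In the 6-library fit the Tet2CD arm has 1 library for each treatment, which is assumed to vary like the vector libraries.

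With all 8 libraries and construct as the blocking factor, no gene passed an adjusted p of 0.05 in edgeR's quasi-likelihood test. This was 0 of 13493 genes (0.0%), and the smallest adjusted p was 0.0598, for NDRG1. Before adjustment, 690 genes were higher and 527 lower with TGFB1 at p under 0.05. After adjustment DESeq2 called 158 and limma on log2(TPM + 1) called 2. DESeq2 took 23780 genes, without the filter on low counts, and edgeR without that filter called 214 of 23780. A block that pairs same-numbered replicates within construct called 702 with all 8 libraries, but the labels do not state such pairs. With the 24 libraries of the series in a single fit, the same contrast called 112 of 15302 genes higher (0.732%) and 48 lower (0.314%). That fit sets the spread over all 24. Without the single library Tet2CD TGFB1 replicate 1, 134 genes were called.

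The 6-library fit called 762 of 13638 genes higher with TGFB1 (5.59%) and 622 lower (4.56%). In the 4 vector libraries alone, 670 of 13055 genes were called higher (5.13%) and 558 lower (4.27%). The 6-library fit and the vector fit shared 905 called genes, all in the same direction, which is 65.4% of the former and 73.7% of the latter. These fits share the vector libraries. The count of 1384 in the 6-library fit became 449 without vector DMSO replicate 1, 768 without vector TGFB1 replicate 1 and 513 without vector TGFB1 replicate 2, but 1127 without vector DMSO replicate 2 and 1276 or 1252 without a Tet2CD library. In the remainder of the text, "rose" and "fell" stand for a call in the 6-library fit, which was chosen with the behaviour of the left-out libraries known. Fold changes and list counts are from that fit unless another is named. Each list count is to be read beside the shares over all tested genes, 5.59% that rose and 4.56% that fell. In the main fit of all 8 libraries no list had a called gene.

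The left-out libraries gave a separate reading of the same genes. Of the 762 genes that rose, 513 (67.3%) were also higher with TGFB1 in the Tet2CD replicate 1 libraries, whereas 45.1% of all tested genes were. Of the 622 that fell, 467 (75.1%) were lower there, against 54.9% of all tested genes. The median log2 difference was 0.20 for the former and -0.20 for the latter, with -0.05 over all genes. Of the 670 genes called higher in the vector libraries alone, 552 (82.4%) were higher in Tet2CD replicate 2 with TGFB1 than with DMSO, and of the 558 called lower 469 (84.1%) were lower, against 48.2% and 51.7% of all genes.

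Ligands first. TGFB1, the gene of the ligand that was added, had 77.1 and 71.8 CPM in the vector DMSO libraries and 114 and 127 CPM in the vector TGFB1 libraries. In Tet2CD cells it had 102 and 65.9 CPM with DMSO and 180 and 114 CPM with TGFB1. The TGFB1 libraries lay above the DMSO libraries of their construct, and the log2 fold change was 0.75 ± 0.12 (SE, 6 libraries, adjusted p = 0.000333). Of the 12 ligand and latent-binding genes tested, 4 rose and none fell. LTBP4 and LTBP3, which tether latent TGF-beta to the matrix, rose by 0.62 ± 0.11 and 0.46 ± 0.10 on the log2 scale, and GDF11, a ligand of the activin branch, by 0.58 ± 0.14. Of the 4 that rose, 3 were also higher in the left-out libraries, and GDF11 was not (-0.16).

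Among 10 receptor genes BMPR2, a type II receptor for BMPs, was the single one to rise, by 0.92 ± 0.12. TGFBR1 and TGFBR2 did not pass the test, with log2 fold changes of 0.19 ± 0.13 and 0.34 ± 0.13. Of 10 SMAD and nuclear partner genes 3 rose, namely SMAD5, a SMAD of the BMP branch (0.70 ± 0.15), and the acetyltransferases EP300 (0.58 ± 0.13) and CREBBP (0.40 ± 0.13). In the left-out libraries SMAD5 stood at 0.09 and CREBBP at 0.11, but EP300 at -0.41. SMAD2 and SMAD3, which carry the TGF-beta signal, were at 0.16 ± 0.13 and 0.06 ± 0.13. SMAD4 was too low to be tested.

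The feedback inhibitors split. PMEPA1, which binds SMAD2 and SMAD3 and limits their phosphorylation, had 92.1 and 84.5 CPM in vector cells with DMSO and 179 and 181 CPM with TGFB1. In Tet2CD cells it had 117 and 125 CPM with DMSO and 230 and 265 CPM with TGFB1. It was thus higher in all 4 TGFB1 libraries than in any DMSO library, including those that stood apart, and its log2 fold change of 1.08 ± 0.11 (adjusted p = 4.69e-06) was 1.06 ± 0.13 with all 8 libraries (adjusted p = 0.08). BAMBI, a pseudoreceptor that dampens TGF-beta signalling, went the other way. It had 224 and 203 CPM in vector cells with DMSO against 92.3 and 94.1 CPM with TGFB1, and 370 and 299 CPM in Tet2CD cells with DMSO against 280 and 216 CPM, a log2 fold change of -0.91 ± 0.13 (adjusted p = 0.00017). Of the 15 inhibitors tested, 3 rose and 1 fell. SKIL, a repressor of SMAD complexes, rose by 0.59 ± 0.17, and the ubiquitin ligase SMURF2 by 0.35 ± 0.11. SMAD7, the inhibitory SMAD, had 34.6 and 28.3 CPM against 34.0 and 36.0 CPM in vector cells and did not pass the test (0.21 ± 0.15).

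**Figure D1:**
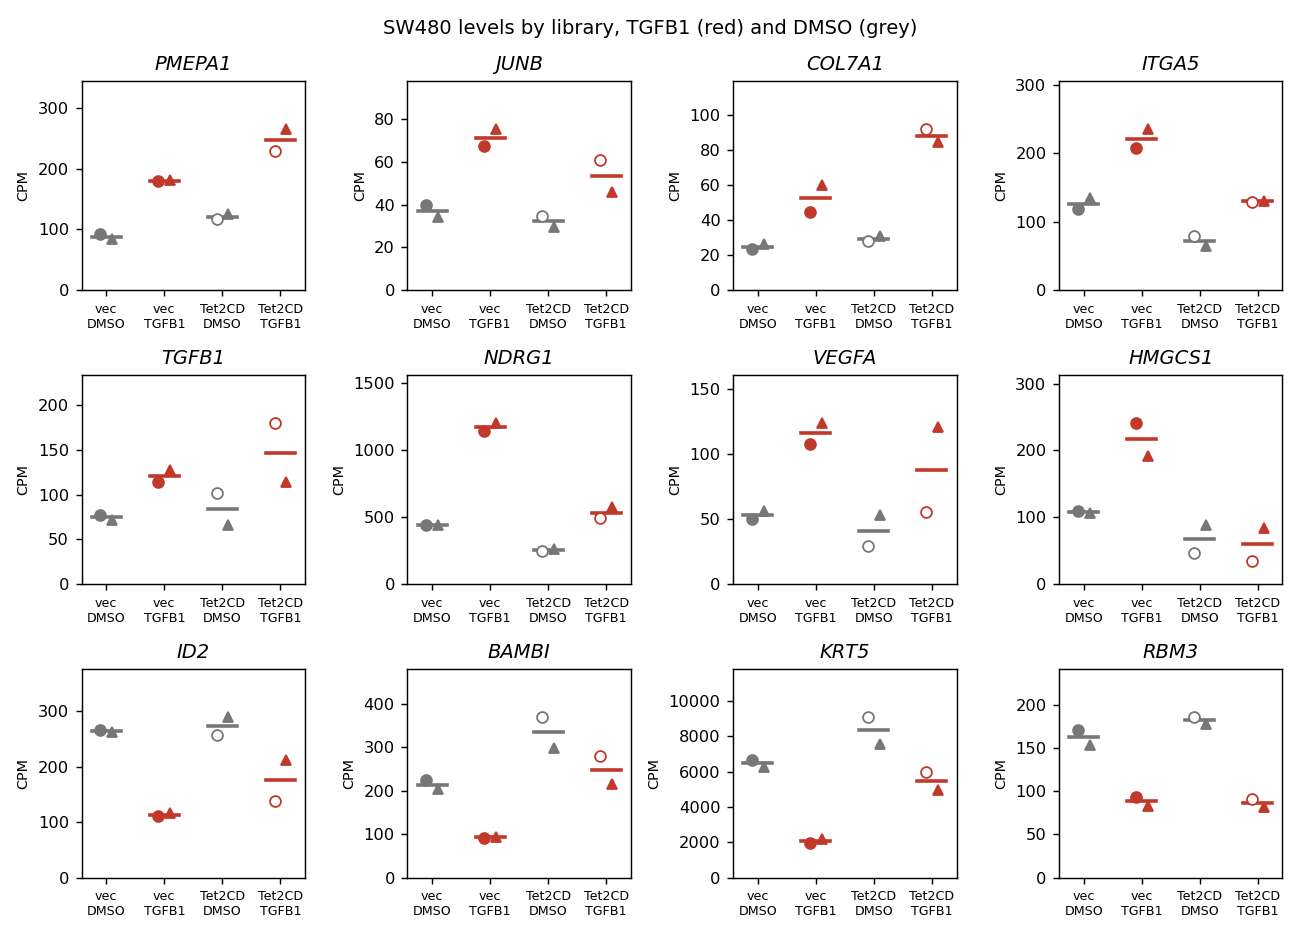
Levels of 12 genes in the 8 SW480 libraries, in CPM on a linear axis from 0. Circles are replicate 1 and triangles replicate 2, open circles mark the Tet2CD replicate 1 libraries, red is TGFB1, grey is DMSO, and the line is the mean of 2 libraries. PMEPA1 and NDRG1 were higher and RBM3 lower in both TGFB1 groups without overlap, while HMGCS1 moved in the vector libraries and overlapped in Tet2CD cells.

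The TGF-beta/SMAD target list held 36 tested genes, of which 14 rose and 1 fell. Its median log2 fold change was 0.46, beside 0.02 over all genes, and 12 of the 14 that rose were also higher in the 2 libraries left out. JUNB, a subunit of the transcription factor AP-1, went from 39.7 and 34.1 to 67.4 and 75.3 CPM in vector cells and from 34.6 and 29.7 to 61.0 and 45.8 CPM in Tet2CD cells (0.88 ± 0.14, adjusted p = 0.000521).

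Secreted factors and proteases of this list were among those that rose. The cytokine IL11 had 2.71 and 5.55 CPM in vector cells with DMSO and 18.7 and 18.0 CPM with TGFB1, and 2.79 and 3.80 against 5.26 and 7.54 CPM in Tet2CD cells (1.82 ± 0.30, adjusted p = 0.000552). MMP9, a gelatinase, rose from at most 1.19 CPM in any DMSO library to 2.34 to 5.70 CPM in the TGFB1 libraries (2.73 ± 0.56), at a depth at which 1 CPM is a few reads. PDGFB, a growth factor, rose by 0.66 ± 0.12 and the urokinase receptor PLAUR by 0.50 ± 0.14. TGFBI, a secreted adhesion protein, had 315 and 325 against 354 and 374 CPM in vector cells and 681 and 692 against 1270 and 1430 CPM in Tet2CD cells (0.51 ± 0.13), and it did not pass the test in the vector libraries alone (adjusted p = 0.281). The single member that fell was RHOB, a small GTPase, at -0.39 ± 0.10.

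Of 30 tested genes of matrix and its remodelling 7 rose and none fell, PLAUR of the previous list among them, and of 23 integrin and focal adhesion genes 8 rose and none fell. In the 4 vector libraries alone 6 of 27 matrix genes were called higher and 1 lower. COL7A1, the collagen of anchoring fibrils, had 23.2 and 26.1 CPM in vector cells with DMSO and 44.6 and 60 CPM with TGFB1, and 27.9 and 30.7 against 91.8 and 84.5 CPM in Tet2CD cells. It did not overlap in either construct (1.25 ± 0.16, adjusted p = 4.46e-05). The lysyl oxidase LOXL2, which crosslinks collagen, rose by 1.02 ± 0.13. The collagen prolyl hydroxylase genes P4HA1 and P4HA2 rose by 0.83 ± 0.13 and 0.60 ± 0.11. ITGA5, the integrin subunit of the fibronectin receptor, had 119 and 134 against 207 and 235 CPM in vector cells and 79.2 and 64.2 against 129 and 130 CPM in Tet2CD cells (0.90 ± 0.11, adjusted p = 4.61e-05). ITGA2, a subunit of a collagen receptor, rose by 1.28 ± 0.14 and ITGB4, of hemidesmosomes, by 0.65 ± 0.11. PLEC, which encodes plectin, a linker between intermediate filaments and hemidesmosomes, had 1140 and 1330 against 2150 and 2390 CPM and 587 and 716 against 1400 and 1690 CPM (1.02 ± 0.10, adjusted p = 5.55e-06). Of the 8 integrin and adhesion genes that rose, 3 were higher in the left-out libraries, and of the 7 matrix genes all 7 were.

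The promoters of PMEPA1, COL7A1, ITGA5 and IL11 are printed because these genes carry the feedback, matrix, integrin and cytokine results, and they were chosen after their values and matches were seen. They were taken from RefSeq on GRCh38.p14, 250 bases before to 50 after the start of the gene, read 5′ to 3′, and all 4 genes are on the minus strand. Capitals mark the letters CAGACA, an element bound by SMAD proteins, and TGACTCA, the AP-1 element, on either strand. PMEPA1 lies at chr20:57711423-57711722, COL7A1 at chr3:48595280-48595579, ITGA5 at chr12:54419217-54419516 and IL11 at chr19:55370414-55370713.
PMEPA1: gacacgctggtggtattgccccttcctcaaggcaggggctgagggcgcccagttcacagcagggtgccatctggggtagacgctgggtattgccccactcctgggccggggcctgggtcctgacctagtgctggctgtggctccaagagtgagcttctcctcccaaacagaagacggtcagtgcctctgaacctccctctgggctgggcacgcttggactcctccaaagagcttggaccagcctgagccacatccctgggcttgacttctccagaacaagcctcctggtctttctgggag
COL7A1: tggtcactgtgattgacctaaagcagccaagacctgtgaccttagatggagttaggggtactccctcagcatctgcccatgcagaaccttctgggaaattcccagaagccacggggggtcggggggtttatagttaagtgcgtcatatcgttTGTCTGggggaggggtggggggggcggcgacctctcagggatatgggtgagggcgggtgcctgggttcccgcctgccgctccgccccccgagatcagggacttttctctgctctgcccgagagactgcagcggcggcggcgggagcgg
ITGA5: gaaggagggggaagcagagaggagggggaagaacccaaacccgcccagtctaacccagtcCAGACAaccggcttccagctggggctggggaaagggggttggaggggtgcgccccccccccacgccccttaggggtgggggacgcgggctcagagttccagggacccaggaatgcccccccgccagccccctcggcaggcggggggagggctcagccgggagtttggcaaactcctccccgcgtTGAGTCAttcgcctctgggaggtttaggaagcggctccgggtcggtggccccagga
IL11: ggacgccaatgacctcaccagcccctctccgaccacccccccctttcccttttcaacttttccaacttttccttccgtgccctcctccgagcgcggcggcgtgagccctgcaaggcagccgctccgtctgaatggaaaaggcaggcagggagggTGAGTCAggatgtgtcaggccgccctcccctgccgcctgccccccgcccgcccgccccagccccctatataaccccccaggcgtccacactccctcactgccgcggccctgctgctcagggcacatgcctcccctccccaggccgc

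The letters were counted over every promoter in the table that matched a gene symbol. CAGACA was held by 78 of 582 promoters of genes that rose (13.4%), 48 of 511 of genes that fell (9.39%) and 1264 of 10564 of all genes tested (12%). TGACTCA was held by 25 (4.30%), 17 (3.33%) and 325 (3.08%), and the palindrome GTCTAGAC by 2, 1 and 15. These shares are a description without a test, and such short words also occur by composition.

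Of 25 tested immediate early genes and feedback genes of MAP kinase signalling, 11 rose and none fell, with a median log2 fold change of 0.46. In the left-out libraries 8 of the 11, and 16 of all 25, were higher. FOSL2, an AP-1 subunit, had 164 and 185 against 323 and 381 CPM in vector cells and 64.5 and 102 against 97.0 and 188 CPM in Tet2CD cells (1.00 ± 0.11, adjusted p = 1.24e-05). EGR1, a growth factor-induced transcription factor, rose by 0.85 ± 0.13. MYC had 307 and 310 against 542 and 579 CPM in vector cells but 175 and 167 against 135 and 177 CPM in Tet2CD cells (0.65 ± 0.13, adjusted p = 0.00258). DUSP5 and SPRY4, which restrain ERK signalling, rose by 0.69 ± 0.13 and 0.65 ± 0.12.

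Of 22 tested genes of hypoxia and glycolysis, 16 rose and none fell, and all 16 were also higher in the left-out libraries. In the 4 vector libraries alone 12 of the 22 were called higher. With all 8 libraries 21 of the 22 were above 0 in log2 fold change, with a median of 0.42 beside 0.01 over all genes, though none passed the test. NDRG1, a gene induced in hypoxia and in differentiation, had 442 and 443 CPM in vector cells with DMSO and 1140 and 1200 CPM with TGFB1. In Tet2CD cells it had 243 and 257 against 490 and 575 CPM. No TGFB1 library of a construct overlapped its DMSO libraries, and the log2 fold change was 1.35 ± 0.10 (adjusted p = 9.27e-08).

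VEGFA, the angiogenic growth factor, had 50.3 and 56.5 against 108 and 124 CPM in vector cells and 29.0 and 53.0 against 55.4 and 121 CPM in Tet2CD cells (1.17 ± 0.12, adjusted p = 6.7e-06). LDHA, which makes lactate, had 1910 and 1610 against 3180 and 2880 CPM and 1140 and 1130 against 1890 and 1980 CPM (0.82 ± 0.10, adjusted p = 1.95e-05). The kinases that set fructose-2,6-bisphosphate, PFKFB3 and PFKFB4, rose by 1.09 ± 0.14 and 0.78 ± 0.13. EGLN3, an oxygen-sensing prolyl hydroxylase, rose by 0.86 ± 0.14, and CA9, carbonic anhydrase IX, by 1.11 ± 0.22. Whether culture density or oxygen differed between the treatments is not given in the labels and was not tested.

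Of 20 tested genes of cholesterol synthesis and uptake 14 rose and none fell, with a median log2 fold change of 0.52, and 16 were called higher in the 4 vector libraries alone. HMGCS1, an early enzyme of the pathway, had 110 and 107 against 241 and 192 CPM in vector cells and 46.9 and 88.8 against 34.8 and 83.7 CPM in Tet2CD cells (0.69 ± 0.16, adjusted p = 0.00904). The median over the 20 genes was -0.04 in the left-out libraries, in which 7 of the 14 were higher, and 0.11 in the Tet2CD groups with all 8 libraries. SQLE, the squalene epoxidase, and CYP51A1, the lanosterol demethylase, rose by 0.65 ± 0.14 and 0.72 ± 0.13. Of 23 genes of fatty acid metabolism 3 rose, among them SCD, the stearoyl-CoA desaturase, by 0.79 ± 0.11.

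**Figure D2:**
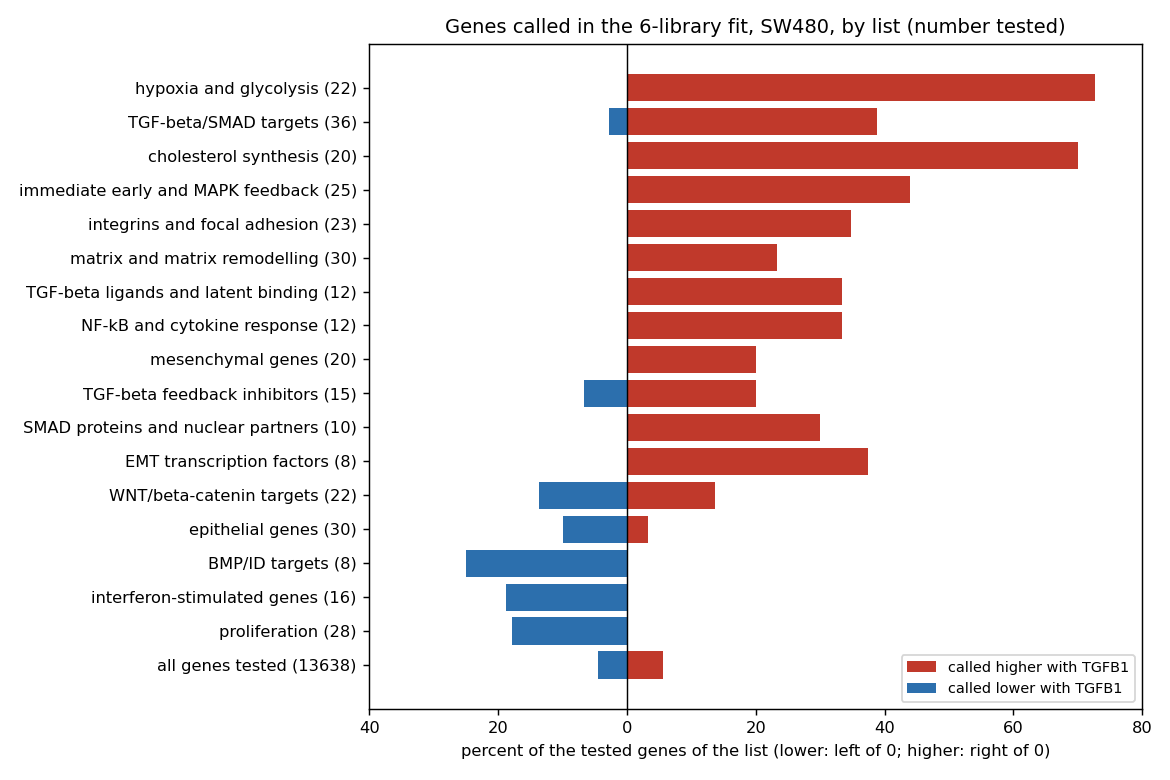
Share of the tested genes of each list that was called higher (right of 0) or lower (left of 0) with TGFB1 in the 6-library fit, in percent, with the number tested in parentheses. Hypoxia and glycolysis (16 of 22) and cholesterol synthesis (14 of 20) had the longest bars on the right, beside 5.59% of all genes.

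**Figure D3:**
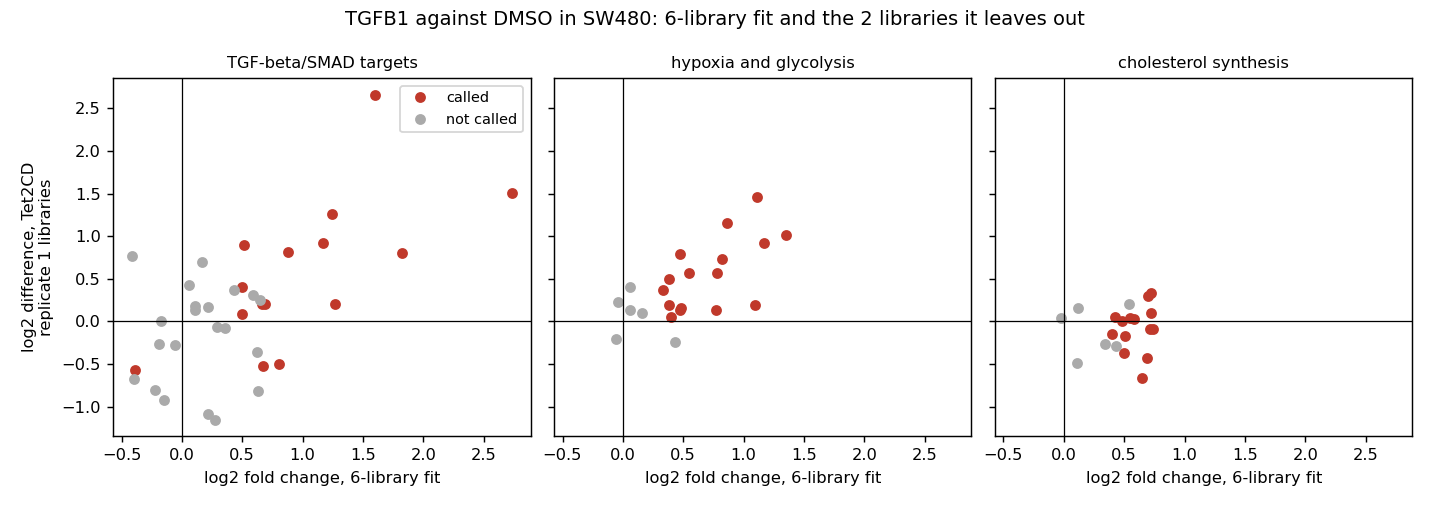
Genes of 3 lists by their log2 fold change in the 6-library fit (horizontal) and their log2 difference between the Tet2CD replicate 1 libraries, which that fit leaves out (vertical). Red points were called. The 16 called hypoxia and glycolysis genes lie above 0 on both axes, while 7 of the 14 called sterol genes do.

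Genes that fell included the keratin genes KRT5 and KRT6A. KRT5, a basal keratin, had 6670 and 6270 CPM in vector cells with DMSO and 1940 and 2210 CPM with TGFB1, and 9100 and 7590 against 5970 and 4990 CPM in Tet2CD cells. It was lower with TGFB1 in both constructs (-1.27 ± 0.14, adjusted p = 1.63e-05). KRT6A, a keratin of activated epithelia, had 52.1 and 59.9 against 16.3 and 18.0 CPM and 87.1 and 91.8 against 40.4 and 68.6 CPM (-1.14 ± 0.20, adjusted p = 0.00102).

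ID2, an inhibitor of basic helix-loop-helix factors that BMP signalling induces, had 267 and 262 against 111 and 117 CPM in vector cells and 257 and 290 against 138 and 213 CPM in Tet2CD cells (-0.92 ± 0.13, adjusted p = 0.000159). The homeobox gene MSX1, another BMP target, fell by 0.52 ± 0.11 on the log2 scale, and they were the 2 of 8 tested BMP and ID targets that fell, with none that rose. RBM3, a cold-inducible RNA-binding protein, had 171 and 154 against 93.3 and 83.2 CPM and 186 and 178 against 91.0 and 81.4 CPM (-0.93 ± 0.12, adjusted p = 3.42e-05). DHRS2, a short-chain dehydrogenase, fell from 52.1 and 50.7 to 14.0 and 17.7 CPM in vector cells (-1.56 ± 0.18, adjusted p = 1.63e-05). GPX1, which reduces hydrogen peroxide, and the metallothionein MT1E fell by 0.98 ± 0.11 and 1.06 ± 0.13, and both had their highest level of the 8 libraries in Tet2CD DMSO replicate 1.

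SAA1, an acute-phase protein, had 20.8 and 12.1 against 4.93 and 4.64 CPM in vector cells and 143 and 89.0 against 25.9 and 4.42 CPM in Tet2CD cells (-2.84 ± 0.35, adjusted p = 3.15e-05). The linker histone gene H1-2 fell by 1.33 ± 0.15 and the core histone gene H2BC12 by 1.00 ± 0.16. Of 28 proliferation genes 5 fell and none rose, namely CCNB1, CCNB2, CDC20, PLK1 and AURKA, which act in mitosis, at -0.46 to -0.36. All 5 were also lower in the left-out libraries, and 1 of the 28 was above 0 in the 6-library fit. In the 4 vector libraries alone none of the 28 was called (median -0.10). Of 16 interferon-stimulated genes 3 fell, IFI27 (-0.94 ± 0.18), IFI6 (-0.84 ± 0.23) and ISG15 (-0.50 ± 0.16), and none of these 3 was lower in the left-out libraries.

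Beside the lists, genes without overlap in vector cells and in Tet2CD replicate 2 were ranked by p and by size, a rule set after values were seen. CST1, a secreted cysteine protease inhibitor, had 141 and 138 against 273 and 301 CPM in vector cells and 617 and 360 against 2950 and 1150 CPM in Tet2CD cells (1.29 ± 0.12, adjusted p = 3.27e-06). SLC5A3, a myo-inositol transporter, had 468 and 615 against 1540 and 1180 CPM and 82.8 and 201 against 154 and 562 CPM (1.41 ± 0.12, adjusted p = 7.29e-07). ANO1, a calcium-activated chloride channel, and LPCAT2, a phospholipid acyltransferase, rose by 1.07 ± 0.10 and 1.15 ± 0.12. CDK3 and the read-through gene TEN1-CDK3, and the histone copies HIST2H2AA3 and HIST2H2AA4, moved in opposite directions (2.85 and -2.23, 1.86 and -1.77). Members of each pair share or overlap in sequence, so how the counting split their reads is uncertain.

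With all 8 libraries, 558 of 13006 genes with a symbol and a mean of at least 2 CPM (log2 CPM of 1) were higher with TGFB1 without overlap in both constructs (4.29%) and 786 were lower (6.04%). The 8 of smallest p on each side did not pass the adjusted test. On the higher side they were NDRG1, PMEPA1, COL7A1, EHD2, PLEC, KCTD11, CD7 and NRN1, with log2 fold changes from 1.06 to 2.45. Of these CD7 was the lowest in level, with 0.528 to 2.39 CPM in DMSO libraries and 7.0 to 10.5 CPM in TGFB1 libraries. KCTD11, an adaptor of CUL3 ubiquitin ligases, had 66.5 and 73.7 against 163 and 189 CPM and 60.5 and 52.0 against 91.4 and 106 CPM. On the lower side they included RBM3, PIMREG, DHRS2, SLC44A2, PRSS23, H2BC12 and CXCL14, from -0.85 to -1.37. CXCL14, a chemokine, had 9.33 and 9.24 against 2.59 and 2.18 CPM in vector cells and 52.9 and 59.8 against 31.5 and 29.6 CPM in Tet2CD cells. Adjusted p over these 16 ran from 0.0598 to 0.147 with all 8 libraries.

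Of 30 epithelial genes 1 rose and 3 fell, with a median of 0.00, and in the 4 vector libraries alone 2 of 29 were called higher and 5 lower. The junction protein DSP rose by 0.51 ± 0.11, while KRT19 and KRT8 fell by 0.45 ± 0.10 and 0.38 ± 0.09. In bulk RNA, fewer cells of a kind and less RNA per cell cannot be told apart. Of 20 mesenchymal genes 4 rose, ITGA5, TGFBI, MMP2 and NT5E, and none fell. In the 4 vector libraries alone 2 of 17 were called higher and none lower, and TGFBI did not pass there. In the left-out libraries 3 of the 4 were higher, while NT5E was at -0.48. NT5E was lower with TGFB1 in both replicates of Tet2CD cells. VIM, the mesenchymal filament protein vimentin, had 695 and 656 against 792 and 784 CPM in vector cells and 814 and 618 against 899 and 727 CPM in Tet2CD cells and did not pass the test (0.25 ± 0.09, adjusted p = 0.0881). Of 8 EMT transcription factors 3 rose, ETS1 (0.73 ± 0.16), ZEB1 (0.88 ± 0.24) and SOX4 (0.53 ± 0.15). In the left-out libraries ZEB1 (0.41) and SOX4 (0.21) were also higher, but ETS1 was lower (-0.95). CDH1, E-cadherin, had 96.0 and 118 against 72.3 and 63.8 CPM in vector cells and 105 and 130 against 94.2 and 194 CPM in Tet2CD cells (-0.17 ± 0.18, adjusted p = 0.581). In the 4 vector libraries alone CDH1 was called lower, at -0.62 ± 0.15 (adjusted p = 0.016).

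Of 22 WNT target genes 3 rose, MYC, LEF1 and CD44, and 3 fell, RNF43, SP5 and AXIN2, so the list had no common direction. CTNNB1, which encodes beta-catenin, had 1300 and 1300 against 856 and 850 CPM in vector cells and 761 and 1010 against 531 and 919 CPM in Tet2CD cells (-0.42 ± 0.11, adjusted p = 0.0135). Of the other genes the study names, RORA, a nuclear receptor, rose by 0.64 ± 0.16 (adjusted p = 0.0168) but had 35.8 against 27.9 CPM in the left-out libraries. TET2 rose by 0.46 ± 0.13 (adjusted p = 0.0315) in the 6-library fit and not in the vector libraries alone (adjusted p = 0.286). SPARC, a matrix glycoprotein, had at most 7.0 CPM in vector libraries and 66.8 and 69.0 against 72.8 and 88.4 CPM in Tet2CD cells, with no call (0.69 ± 0.33, adjusted p = 0.188). Of 34 ribosomal protein genes 2 fell in the 6-library fit, beside 4.56% of all tested genes. All 34 were higher with TGFB1 in the left-out libraries, with a median of 0.25.

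Of 12 NF-kB and cytokine genes 4 rose, IL11, NFKB1, NFKB2 and ICAM1, and of these IL11 and NFKB2 were also higher in the left-out libraries. Of 24 cytoskeletal genes 2 rose and 1 fell, and of 21 genes of the integrated stress response 2 rose, DDIT4 and TRIB3, and 2 fell, ATF5 and ASNS. Of 16 growth arrest genes 1 rose and 2 fell, and of 10 intestinal differentiation genes KLF4 and KLF5 rose. Of 12 DNA methylation enzymes TET2 and OGT rose. The TET2 count includes the introduced construct, and TET2 did not pass the test in the vector libraries alone. Of 14 genes of MYC activity and ribosome biogenesis MYC and LDHA rose, and of 12 heat shock genes HSPB1 fell. Over all tested genes 5.59% rose and 4.56% fell. Counts of 1 or 2 in lists of this size are not read as a result about the list.

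Vector and Tet2CD cells were also taken apart. In the 4-group fit of all 8 libraries edgeR called no gene in either construct, with 445 higher and 527 lower at an unadjusted p under 0.05 in vector cells and 399 and 224 in Tet2CD cells. DESeq2 called 40 and 15. Leaving out Tet2CD TGFB1 replicate 1 gave 17 calls in vector cells, and leaving out Tet2CD TGFB1 replicate 2 gave 23. The 4 Tet2CD libraries alone called 0 of 13176 genes (0.0%), with 124 higher and 48 lower at an unadjusted p under 0.05. No other tool was run on these 4. The 4-group fit without the Tet2CD replicate 1 libraries leaves 1 library in each Tet2CD group, so its spread comes from the vector libraries alone. For Tet2CD cells it is therefore given as log2 fold changes only. They were 1.12 for PMEPA1, 1.5 for COL7A1, 1.20 for NDRG1, 1.09 for TGFBI, 1.71 for CST1 and -4.28 for SAA1.

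The difference of the TGFB1 effect between the constructs was called for 0 of 13965 genes (0.0%) with all 8 libraries in edgeR, with 239 and 121 genes at an unadjusted p under 0.05, and for 1 by DESeq2. Without the Tet2CD replicate 1 libraries each Tet2CD group is 1 library, so differences from that fit are given as sizes only. KRT5 changed by -1.62 in vector cells and by -0.57 in Tet2CD cells, a difference of 1.05 on the log2 scale. NEURL1B, a ubiquitin ligase of Notch ligands, had 25.6 and 30.4 against 11.9 and 11.5 CPM in vector cells. In Tet2CD cells it had 45.4 and 58.3 against 93.0 and 119 CPM (difference 2.31). Here the left-out libraries went the same way as replicate 2. NT5E, the ecto-5'-nucleotidase CD73, had 14.7 and 16.9 against 49.3 and 47.5 CPM in vector cells. In Tet2CD cells it had 10.3 and 19.3 against 7.28 and 10.4 CPM (difference -2.48). CDH1 was lower with TGFB1 in vector cells and higher in Tet2CD replicate 2 (difference 1.25). When all 8 libraries entered, its difference was 0.96 and was not called. HMGCS1 had a difference of -1.06 in the fit without the Tet2CD replicate 1 libraries and is not shown to differ between the constructs.

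SW620 cells, which share no library with SW480, had more genes called under the same treatment. In their 8 libraries 2914 of 13373 genes were called higher (21.8%) and 2968 lower (22.2%). Of the SW480 genes that rose, 701 were tested in SW620, of which 428 (61.1%) were called higher and 34 lower. Of those that fell, 575 were tested, of which 366 (63.7%) were called lower and 20 higher. The hypoxia list had a median log2 fold change of 1.20 in SW620, against 0.47 in SW480, and the proliferation list one of -0.76, against -0.21.

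The difference between the lines was tested with all 16 libraries and called for 169 of 14578 genes as higher in SW480 (1.16%) and for 193 as lower (1.32%). Leaving out Tet2CD TGFB1 replicate 1 or 2 of SW480 raised the total of 362 to 902 or 729, and it was 148 to 225 on leaving out any vector library or either SW620 Tet2CD DMSO library. Of 23 hypoxia and glycolysis genes 7 were lower in SW480 and none higher. SLC2A3, the glucose transporter GLUT3, had 2190 and 2230 against 2620 and 2530 CPM in SW480 vector cells, and its log2 fold change was 0.35 ± 0.15 in all 8 SW480 libraries but 3.78 ± 0.12 in SW620 (difference -3.41 ± 0.21, adjusted p = 2.74e-07). EGLN3 was at 0.94 ± 0.18 in SW480 and 3.10 ± 0.10 in SW620 (difference -2.15 ± 0.20). CADM1, a cell adhesion molecule, went the opposite way in the lines. It had 65.9 and 76.1 against 144 and 127 CPM in SW480 vector cells and 39.0 and 48.7 against 78.8 and 118 CPM in Tet2CD cells (1.07 ± 0.17), but its log2 fold change was -1.31 ± 0.30 in SW620 (difference 2.41 ± 0.29, adjusted p = 0.00121). PMEPA1 did not pass the test of the difference, at 0.62 ± 0.16 (adjusted p = 0.0547), and passed it without the Tet2CD replicate 1 libraries (0.58, adjusted p = 0.0112).

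**Figure D4:**
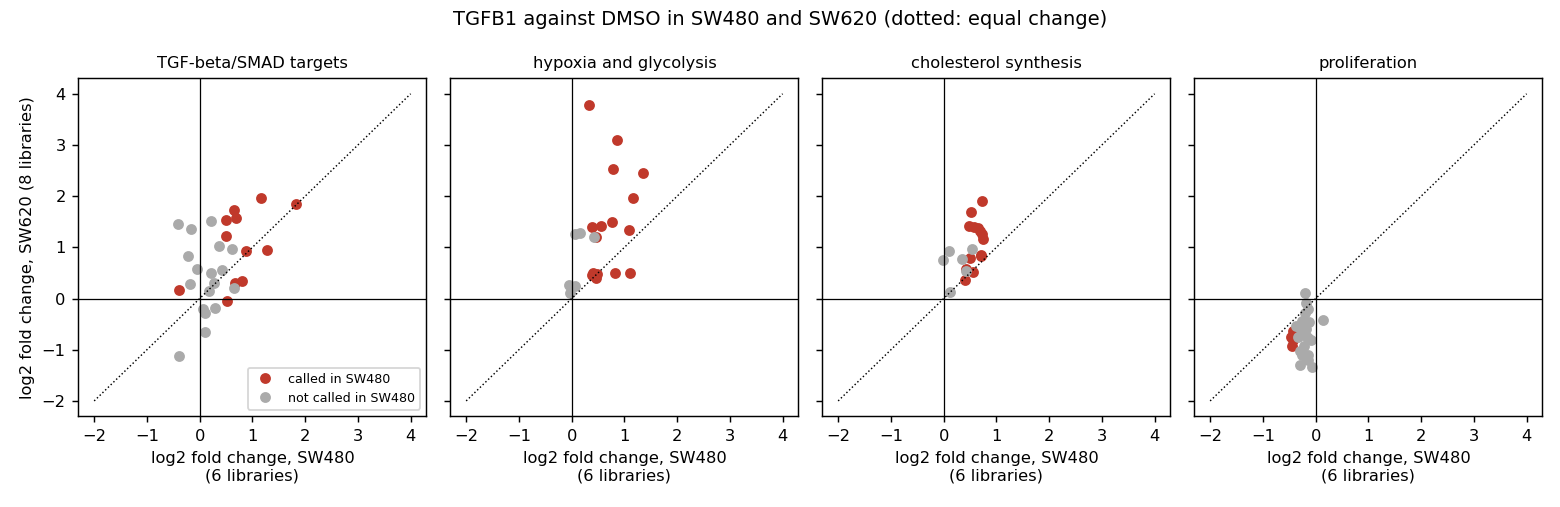
Log2 fold change with TGFB1 in SW480 (6 libraries, horizontal) and in SW620 (8 libraries, vertical) for the genes of 4 lists. Red points were called in SW480, and the dotted line marks equal change. Most hypoxia and sterol genes lie above the line, with SLC2A3 at 0.33 and 3.78, and most proliferation genes lie below it.

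In the cells given RepSox, PMEPA1 had 81.4 and 81.0 CPM with the vector and 102 and 121 CPM with Tet2CD, below or within the range of the DMSO libraries.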

How the data were processed

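RNA-seq of SW480 and SW620 cells was used as 1 gene table per library. Per the study's methods, RNA was isolated with TRIzol and libraries were made with a TruSeq kit. Bowtie and RSEM (no versions) and mm10, a mouse build, stand in the submitters' processing notes, but every gene identifier is human and the genes were treated as such. The authors deposited an expected count per gene, RSEM's estimate of its fragments, and TPM, which is scaled for transcript length. The deposited FPKM was not used here. Use of strand in counting was not stated in the sources read. Symbols and GRCh38 positions came from GENCODE release 29 and a gene name table (24702 of 33382 genes have a symbol).

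Expected counts were rounded. The main test was edgeR's quasi-likelihood fit (edgeR 4.0.16, R 4.3.3), with TMM scaling, filterByExpr, construct as a blocking factor and Benjamini-Hochberg adjustment over all genes tested, at 0.05. Levels are CPM with TMM factors over the 24 libraries. Errors of fold changes are SE derived from the F statistic. Alternatives were DESeq2 1.42.0 (run without filterByExpr), RLE scaling, no filter and limma 3.58.1 on log2(TPM + 1). Other sets of libraries, a block for library set and leaving out each library were also tried. The test was checked on simulated counts: of 100 genes changed by 1 on the log2 scale, 45 were called among 13493 genes with all 8 libraries and 76 among 13638 with 6. Of the unchanged genes 5 and 10 were called. The simulation gave all libraries the same spread per gene, with no construct effect and no library that stood apart. It therefore cannot decide between these fits for the real libraries.

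Named genes were up to 12 per direction among called genes without overlap, filled to 8 by smallest p, members of fixed gene lists by smallest p, and 16 genes of the pathway and the study. The same rule was applied to the 6-library fit after values were seen. The members and lists were chosen with earlier results of these data known. Every pair of replicates differed by more than sampling noise in a chi-square test, and none was treated as a duplicate. Some genes that the rules select are not reported here, though counts over lists include them.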

Additional observations from a re-analysis of the deposited data

Results flagged for a closer look

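The TGFB1 effect differed between SW480 and SW620 by edgeR's test of that difference, and genes of smallest p on each side are given as SW480 minus SW620 on the log2 scale. Larger in SW480 were CADM1 (2.41), HSD11B2 (2.45), CD24 (1.59), GEMIN4 (1.22) and MYBBP1A (1.34). Smaller in SW480 were SLC2A3 (-3.41), EGLN3 (-2.15), PFKFB4 (-1.76) and PNRC1 (-1.43). All 9 were also called without the SW480 Tet2CD replicate 1 libraries, with values from -3.48 to 2.36.

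Between the constructs, no gene was called when all 8 libraries entered. Without the Tet2CD replicate 1 libraries each Tet2CD group is 1 library. From that fit the log2 effect in Tet2CD minus that in vector cells is given as a size only. Higher were GALNT4 (15.84), NEURL1B (2.31), SLX1B (3.39), PYURF (2.45) and KRT5 (1.05). Lower were BIVM-ERCC5 (-8.84), NT5E (-2.48), POC1B-GALNT4 (-9.89), SAA1 (-2.54) and AP000347.2 (-8.16). GALNT4, POC1B-GALNT4, BIVM-ERCC5 and AP000347.2 have libraries at 0, so that their fitted values depend on the prior count and are no bound. GALNT4 and POC1B-GALNT4 share sequence.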

How the results depend on the processing

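The count of genes called depended on which libraries set the spread. For TGFB1 against DMSO it was 0 with all 8 libraries, with RLE scaling and with the 12 SW480 libraries, and 158 with DESeq2, 214 without a filter, 2 with limma on log2(TPM + 1), 160 with 24 libraries and 1384 without both Tet2CD replicate 1 libraries. The last became 766 with DESeq2, 1397 with RLE scaling, 1723 without a filter, and it was on leaving out 1 more library 449 (vector DMSO replicate 1), 1127 (vector DMSO replicate 2), 768 and 513 (vector TGFB1 replicates 1 and 2), 1276 (Tet2CD DMSO replicate 2) and 1252 (Tet2CD TGFB1 replicate 2). Leaving out 1 of the 8 gave 0 to 134. A replicate block for library set gave 1 call, and a replicate block of library set within construct 702, of which 630 were also called in the 6-library fit. The library numbers are not stated to pair libraries, and the deviations of same-numbered libraries correlated at 0.094 in vector and 0.746 in Tet2CD cells.

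For vector cells the count went from 0 to 40 with DESeq2, 114 without a filter, 81 with 24 libraries, 1228 in the 4 vector libraries alone and 1279 without both Tet2CD replicate 1 libraries, and 0 to 23 on leaving out 1. For Tet2CD cells it went from 0 to 15 with DESeq2, 63 without a filter, 14 with 24 libraries and 99 without both Tet2CD replicate 1 libraries, and 0 to 1 on leaving out 1, which was Tet2CD TGFB1 replicate 1 or 2. The construct difference went from 0 to 1, 34, 2 and 25 under these same 4 settings and stayed at 0 on leaving out 1. The line difference of 362 became 718 with DESeq2, 639 without a filter, 1780 without both Tet2CD replicate 1 libraries of SW480, and 148 to 902 on leaving out 1. In all other alternatives for these counts they stayed within 1.5 times. The forms of the 6-library fit, and the construct, per-construct and line fits without both Tet2CD replicate 1 libraries, were chosen after seeing the data. The cause was not tested.

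Of 1020 planned values for 60 named genes, 782 kept direction and side of the threshold and 227 passed it. The reference was the fit of all 8 libraries, which called 0 genes. A kept side therefore means not called, and no call could be lost. The sign changed for SMAD2 (0.16 without both Tet2CD replicate 1 libraries and under its DESeq2, RLE and no-filter forms, -0.08 to 0.14 on leaving out 1 of 8 and 0.11, 0.12, 0.14 or 0.25 on leaving out 1 of 6), SMAD3 (-0.09 to 0.17 with 1 of 8 left out, -0.09 or -0.01 with 1 of 6), TEN1-CDK3 (-1.97 to 0.09 with 1 of 8 left out), CDH1 (0.02 with 1 of 6 left out), TET2 (-0.12 to 0.66) and TGFBR1 (-0.07 to 0.32), the last 2 with 1 of 8 left out. At totals of 2694120 to 3877775, low genes such as MMP9 rest on few reads.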
